A study of Mus musculus with 21 samples.

Results

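The comparison described here set multipotent progenitors (MPPs) that received a retroviral vector carrying Bach2 against MPPs that received the same kind of vector without it. It used 6 of the 21 arrays of the study, chosen by their labels alone: 3 arrays of the Bach2 vector and 3 of the control vector. MPPs are bone marrow cells that can still give rise to all blood lineages. They were isolated from wild-type (WT) mice as cells without lineage markers that carried c-kit and Sca-1 and an intermediate level of Flt3. Cells of 4 mice were pooled for each experiment. Before infection both groups were kept overnight with the cytokines SCF (50 ng/ml), IL-3 (5 ng/ml) and IL-6 (10 ng/ml), and the virus was spun onto the cells. The Bach2 vector was a retrovirus with Bach2 and GFP, and the control vector was MSCV with GFP. Both groups then spent 2 days in a culture that permits development into several lineages, and GFP+ cells were sorted. RNA passed through 2 rounds of amplification before it was labelled with Cy3, and each array was hybridised with 1 sample. The sources used here give neither the age nor the sex of the animals, and the sorted GFP+ cells may be of more than 1 stage after culture.

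Bach2 is a transcription repressor of the basic leucine zipper family. With a small Maf protein as partner it binds Maf recognition elements in DNA, the same class of sites through which Nrf2 (Nfe2l2) activates genes of glutathione synthesis, detoxification and NADPH supply. Bach2 and its relative Bach1 are known for restraining myeloid genes in lymphoid progenitors and for their part in B-cell development and class switching. Heme releases Bach factors from DNA, and Hmox1, the heme-degrading enzyme, is a classical Bach1 target.

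Levels are log2 signals from which the 75th percentile of the same array was subtracted, and differences are given as Bach2 vector minus control vector on the log2 scale ± SE from limma. Arrays of the same replicate number were fitted as pairs, and a probe passed at an adjusted p under 0.05 over all probes tested. The array's 75th percentile of signal was 2126 to 3377 in the Bach2-vector group and 2369 to 3160 in the control-vector group. Between 71.0% and 81.4% of spots in the Bach2-vector group were well above background, and between 70.5% and 80.0% in the control-vector group. Replicate 1 of both groups lay on 1 slide and replicates 2 and 3 of both on another. Replicate 3 of both groups stood apart in the Y-linked Ddx3y, at -9.32 with the Bach2 vector and -9.09 with the control vector, against 0.82 to 1.11 in the other 4 arrays. The Y-linked Eif2s3y likewise stood at -7.42 and -8.92, against 4.12 to 4.47. The X-linked Xist was highest in replicate 3, at -1.49 and -2.23, against -5.37 to -4.31. The replicate number thus carries a difference in sex-linked genes that both groups share. With 3 arrays a group, precision is set by that number.

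Bach2 was read by 2 probes, and they did not read the same difference between vectors. The dimmer probe stood at -1.25, -3.57 and -3.90 in replicates 1 to 3 of the Bach2 vector, against -8.57, -7.11 and -6.34 with the control vector, where it was well above background on 1 of 3 arrays. Its groups did not overlap, but the difference of 4.43 ± 0.95 did not pass (adjusted p = 0.152). The brighter probe stood at -0.92, -2.03 and -2.57 with the Bach2 vector, against -3.87, -2.96 and -2.15 with the control vector, and its groups overlapped (1.15 ± 0.65, adjusted p = 0.659). Its pair difference was 2.95 in pair 1, 0.93 in pair 2 and -0.42 in pair 3. Where the 2 probes lie relative to the part of Bach2 in the vector is not known, so they check the labels only as far as the probes read the insert. Bach1 read 1.07, 0.98 and 0.60 with the Bach2 vector and 2.15, 1.43 and 2.06 with the control vector, lower with the Bach2 vector in each pair, but it did not pass (adjusted p = 0.220).

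Of 42472 probes tested, 534 passed (1.26%), of which 301 were higher with the Bach2 vector (0.709%) and 233 lower (0.549%). The smallest fold among them was 2.53, 402 probes differed at least 4-fold and 69 at least 16-fold. All 534 had one sign in the 3 pairs, and in 516 the groups did not overlap, as in 4707 of all probes tested (11.1%). Read by the brightest probe of each named gene, 348 of 16770 genes passed (2.08%), 196 higher (1.17%) and 152 lower (0.906%). The median difference over the tested genes was -0.022. Of the 112 genes with a called probe and at least 2 tested probes, 105 had all their probes in 1 direction, and 0 genes had probes called in both directions. Without the pairing 262 probes passed, 136 higher and 126 lower, of which 247 were among the 534. Without replicate 1, that is on the slide that held both other pairs, 0 probes passed in limma, with 3352 at an unadjusted p under 0.05. Without replicate 2 the count was 68 and without replicate 3 it was 50, so the calls rest on having 3 pairs.

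**Figure D1:**
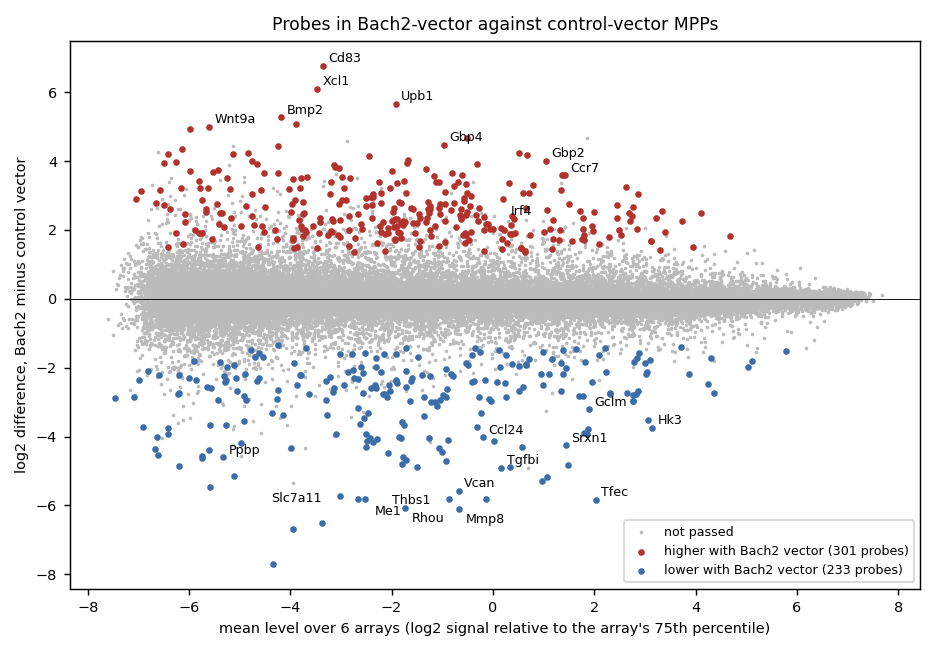
Difference between vectors (log2, Bach2 minus control) against mean level over the 6 arrays for the 42472 probes tested. Red points (301) passed and were higher with the Bach2 vector, blue points (233) passed and were lower, and grey points did not pass; Cd83, at 6.77, is the largest named rise.

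The largest named falls included genes of granulocytes, monocytes and macrophages and genes of cystine and NADPH metabolism. Mmp8, the neutrophil collagenase, stood at -2.45, -4.85 and -3.85 with the Bach2 vector, against 3.32, 1.70 and 2.11 with the control vector. The groups lay far apart, by more than the whole spread within either, and Mmp8 fell 68.3-fold (-6.09 ± 0.23, adjusted p = 0.0122). Tfec, a transcription factor of the Mitf family found in macrophages, stood at -0.24, -0.02 and -2.40 with the Bach2 vector, against 4.61, 4.84 and 5.39 with the control vector. It was among the brighter genes of control-vector cells and fell 57.0-fold (-5.83 ± 0.65, adjusted p = 0.0347). Thbs1, the secreted matrix protein thrombospondin-1, stood at -3.16, -3.90 and -4.23 with the Bach2 vector and at 3.35, 1.63 and 1.14 with the control vector (-5.81 ± 0.29, adjusted p = 0.0122). Its 3 Bach2-vector values were close together, while the control-vector values spread wider.

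Rhou, an atypical small GTPase, stood at -3.81, -5.67 and -4.83 with the Bach2 vector and at 1.62, 1.10 and 1.15 with the control vector (-6.06 ± 0.30, adjusted p = 0.0122). Tgfbi, a secreted protein induced by TGF-beta and made by monocytes, fell 30.1-fold (-4.91 ± 0.24, adjusted p = 0.0122), and Ttc39c fell 29.4-fold (-4.88 ± 0.23, adjusted p = 0.0122). Sirpb1b, a receptor of the signal-regulatory protein family, had the largest named fall, 102-fold (-6.67 ± 0.79, adjusted p = 0.0398), but was well above background on only 1 of 3 Bach2-vector arrays. Olr1, the receptor for oxidised LDL, was above background on 0 of 3 Bach2-vector arrays and was at least 10.1-fold lower (adjusted p = 0.0466). The bound compares the control-vector mean with the lowest signal above background on each Bach2-vector array, or the probe's own signal where that was higher. Vcan, the proteoglycan versican, fell 47.9-fold by its brightest probe (-5.58 ± 0.21, adjusted p = 0.0122), whereas a second probe read -0.33 ± 0.22 and did not pass (adjusted p = 0.734).

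**Figure D2:**
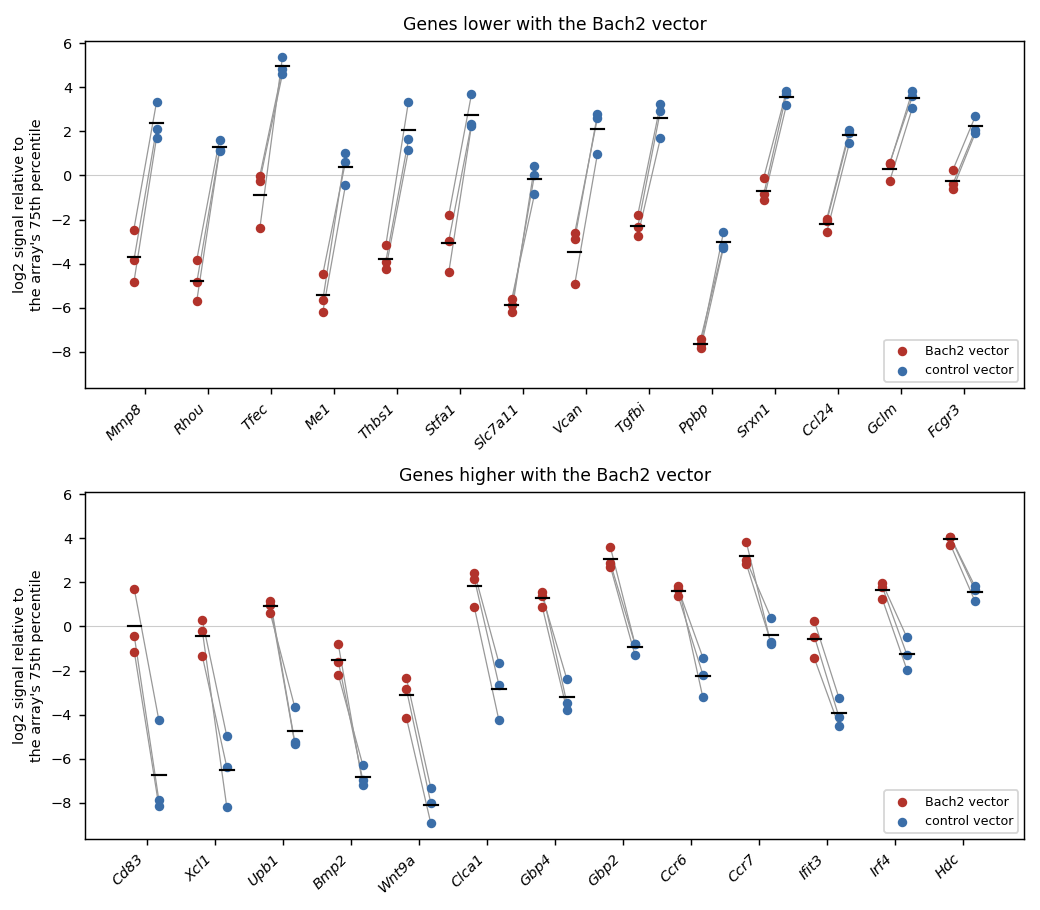
Level on each array (log2 signal minus the 75th percentile of the array) of 14 genes that were lower and 13 that were higher with the Bach2 vector. Red points are Bach2-vector arrays and blue points control-vector arrays, grey lines join arrays of the same replicate number and black bars are means of 3; in each gene shown the 2 colours do not overlap.

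Of the genes of glutathione, thioredoxin and NADPH metabolism, 9 of 30 tested passed, all lower, and 28 of 30 had a negative difference, with a list median of -0.64, which was -0.41 without replicate 1. Some genes of this list are known to be controlled by Nrf2 and Bach factors through the same sites, but binding was not measured here. Srxn1, sulfiredoxin, which repairs over-oxidised peroxiredoxins, stood at -0.10, -0.85 and -1.10 with the Bach2 vector, against 3.82, 3.69 and 3.19 with the control vector. The arrays within each group lay close together, and Srxn1 fell 19.0-fold (-4.25 ± 0.21, adjusted p = 0.0122). Me1, the malic enzyme that yields NADPH in the cytosol, stood at -5.64, -4.47 and -6.18 with the Bach2 vector and at 1.00, 0.62 and -0.44 with the control vector. It fell 56.4-fold (-5.82 ± 0.33, adjusted p = 0.0130), and 1 of its 2 other probes passed as well (-2.90 ± 0.36, adjusted p = 0.0466), while the other did not (-4.37 ± 0.62, adjusted p = 0.0588). Slc7a11, the cystine importer subunit xCT, stood at -6.18, -5.60 and -5.89 with the Bach2 vector and at 0.41, -0.86 and 0.02 with the control vector, and fell 53.6-fold (-5.74 ± 0.38, adjusted p = 0.0147).

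Gclm, the modifier subunit of glutamate-cysteine ligase that starts glutathione synthesis, stood at -0.25, 0.53 and 0.57 with the Bach2 vector and at 3.07, 3.83 and 3.58 with the control vector (-3.21 ± 0.18, adjusted p = 0.0130). Its catalytic partner Gclc differed by -0.28 and did not pass (adjusted p = 0.788). The other 5 that fell were Nqo1, a quinone reductase (-3.31 ± 0.31), the glutathione transferases Mgst1 (-3.78 ± 0.49), Gsta4 (-2.29 ± 0.21) and Gstm1 (-1.77 ± 0.22), and Gsr, glutathione reductase (-1.82 ± 0.20). Nqo1, Mgst1, Gstm1 and Gsr were named after their values were seen. Abundant members of the same list stayed near 0, with Gpx1 at -0.08, Prdx1 at -0.28, Sod1 at -0.02, Gstp1 at 0.01 and Txn1 at -0.10, none of which passed. Without the pairing 6 of the 9 passed, and Mgst1 (adjusted p = 0.0504), Gsr (0.0686) and Gstm1 (0.238) did not.

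Of the genes of heme breakdown and iron, 1 of 12 tested passed, 11 had a negative difference, and the list median was -0.36. The one that fell was Slc40a1, the iron exporter ferroportin, at -3.10, -4.95 and -5.30 with the Bach2 vector and 0.90, -1.44 and -0.35 with the control vector (-4.15 ± 0.32, adjusted p = 0.0183). Its groups did not overlap, but it did not pass without the pairing (adjusted p = 0.0922). Hmox1 stood at 0.00, -0.27 and -0.01 with the Bach2 vector and at 1.87, 0.65 and 0.43 with the control vector, and did not pass (-1.08 ± 0.32, adjusted p = 0.291). Among Bach, Nrf and small Maf factors 0 of 9 passed in limma, with a median of -0.43; Nfe2l2 read -0.14, Mafk -0.64 and Mafg -1.02 (adjusted p = 0.0937).

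The start regions of the genes that passed were searched for Maf-type motifs. Windows of 250 bases before to 50 after the gene start, from RefSeq on GRCm38.p6, were found for 139 of the 171 genes with a probe that fell, 160 of the 215 with a probe that rose and 13333 of all 16770 tested. They were searched on both strands for TGANTCA, the core of Maf recognition and AP-1 sites, and for TGACNNNGC, the core of antioxidant response elements. The 2 motifs overlap in TGACTCAGC, which matches both. TGANTCA was in 14.4% of windows of genes that fell, 10.2% of genes that rose and 6.19% of all tested genes. TGACNNNGC was in 16.5%, 9.72% and 13.6% of the same sets. Over the 42 tested genes of the glutathione, thioredoxin, NADPH, heme and iron lists, whether they fell or not, it was in 31.1% of windows. Of these, 10 genes fell and 7 had a window, and 4 of their 10 windows held it. A match is a description of these letters, not a bound site. Genes that fell and had no match or no window are not shown. The stretches below are of 6 genes that fell and hold such a match, with the matches in capitals, 5′ to 3′ on the gene's strand; they are shown because Srxn1 holds 3 matches, Me1 holds the shared form close to its start, and the others hold 1 of either kind.
Srxn1, chr2:152105382-152105573, plus strand: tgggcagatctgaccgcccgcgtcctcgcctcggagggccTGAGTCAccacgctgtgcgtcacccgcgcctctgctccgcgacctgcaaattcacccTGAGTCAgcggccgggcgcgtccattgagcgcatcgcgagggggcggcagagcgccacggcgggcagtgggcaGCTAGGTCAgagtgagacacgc
Me1, chr9:86695872-86695960, minus strand: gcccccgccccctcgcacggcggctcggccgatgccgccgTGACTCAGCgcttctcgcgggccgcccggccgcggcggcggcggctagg
Gclm, chr3:122245383-122245471, plus strand: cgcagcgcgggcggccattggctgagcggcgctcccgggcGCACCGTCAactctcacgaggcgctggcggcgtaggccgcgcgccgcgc
Mgst1, chr6:138140431-138140519, plus strand: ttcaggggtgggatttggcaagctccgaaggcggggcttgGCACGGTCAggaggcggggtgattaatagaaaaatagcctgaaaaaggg
Plaur, chr7:24462374-24462460, plus strand: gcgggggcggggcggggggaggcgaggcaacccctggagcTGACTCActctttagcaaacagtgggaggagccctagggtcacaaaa
Olr1, chr6:129507179-129507265, minus strand: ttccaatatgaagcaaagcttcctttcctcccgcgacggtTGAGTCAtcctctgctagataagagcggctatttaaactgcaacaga

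In Srxn1 the matches begin at -102, -45 and 28 relative to the gene start, the third being an antioxidant-type match on the other strand. In Me1 the match begins at -6, in Gclm at -134 and in Mgst1 at -56, both of these last on the other strand. Plaur, the urokinase receptor, and Olr1 each hold 1 TGANTCA match, beginning at -69 and -60. All 6 were chosen among genes that fell, by 2.82 on the log2 scale in Plaur to 5.82 in Me1. The 3 matches of Srxn1 and the shared form in Me1 were not particular to them. Pir, named after its values were seen, also had a probe that fell (-3.92), though not without the pairing (adjusted p = 0.0887). Its window holds the shared form, with matches beginning at -214, -212 and 19, those at -214 and -212 overlapping.

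Myeloid genes fell in several lists, though far from all of their members did. Of 18 neutrophil granule genes 2 fell and 1 rose, with a median of -0.75, which was -0.41 without replicate 2. Mpo and Elane, the early granule genes myeloperoxidase and neutrophil elastase, read -0.30 and -0.75 and did not pass, and Mpo stayed bright at 6.43 to 6.56 with the Bach2 vector and 6.75 to 6.90 with the control vector. The 2 that fell were Mmp8 and Padi4, a peptidylarginine deiminase, which fell 8.02-fold (adjusted p = 0.0258). S100a8, a calcium-binding protein of neutrophils and monocytes, read -1.99 ± 0.35 and did not pass (adjusted p = 0.0927). Itgb2l, an integrin beta gene, rose (1.99 ± 0.21, adjusted p = 0.0311), but not without the pairing (adjusted p = 0.101). In bulk samples such as these, fewer cells of a type and less RNA of a gene per cell cannot be told apart.

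The stefin A and cystatin family of cysteine protease inhibitors had the lowest median of the lists, -3.29, with 3 of 9 tested passing, all lower. Stfa1 stood at -1.79, -4.38 and -2.96 with the Bach2 vector and at 3.68, 2.26 and 2.34 with the control vector (-5.80 ± 0.32, adjusted p = 0.0130). Cstdc5 read -5.30 ± 0.44 (adjusted p = 0.0204), and Csta2, outside the list, fell as well (-4.87 ± 0.39, adjusted p = 0.0190). Stfa2l1 read -4.69 ± 0.31 (adjusted p = 0.0147, and 0.0505 without the pairing). These genes are near-identical copies, so which of them a probe reads is uncertain.

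Among monocyte and macrophage genes 4 of 24 fell and 0 rose, with a median of -0.36: Thbs1, Vcan, F13a1 and C5ar1. F13a1, the A subunit of coagulation factor XIII, stood at -3.94, -5.56 and -4.46 with the Bach2 vector and at 0.85, -1.36 and -0.55 with the control vector (-4.30 ± 0.24, adjusted p = 0.0130, and 0.0506 without the pairing). C5ar1, the complement C5a receptor, was above background on 0 of 3 Bach2-vector arrays and at least 6.73-fold lower (adjusted p = 0.0467). Csf1r, the receptor for M-CSF, read 2.34, -1.04 and -0.12 with the Bach2 vector and 3.67, 2.03 and 2.49 with the control vector. Its groups overlapped between arrays, and the difference did not pass (-2.33 ± 0.37, adjusted p = 0.0768). Its probes disagreed: a dimmer one passed at -2.15 ± 0.18 (adjusted p = 0.0204, and 0.299 without the pairing), and another read -0.29 ± 0.18 and did not pass (adjusted p = 0.703). Itgam, the integrin CD11b, read 0.11 and did not pass.

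Of 28 myeloid cytokine and Fc receptors 7 fell and 0 rose, with a median of -0.28. Clec4d and Clec4e, lectin receptors for mycobacterial glycolipid, read -3.91 ± 0.35 (adjusted p = 0.0234) and -2.68 ± 0.26 (adjusted p = 0.0270). Fcgr3, an activating IgG receptor, stood at 0.23, -0.61 and -0.40 with the Bach2 vector and at 2.69, 1.93 and 2.06 with the control vector (-2.49 ± 0.17, adjusted p = 0.0163). The inhibitory receptor Fcgr2b fell by a like amount (-2.77 ± 0.20, adjusted p = 0.0170). Clec5a, a lectin receptor of monocytes, fell 20.0-fold (-4.32 ± 0.28, adjusted p = 0.0147), with 2 of 3 Bach2-vector arrays above background. The other 2 were Sirpb1b and Pirb, an inhibitory receptor (-1.55 ± 0.18, adjusted p = 0.0371, and 0.318 without the pairing), which was named after its values were seen. Relatives of Pirb outside the list, also seen after the values, fell: Lilrb4a read -2.75 ± 0.22 (adjusted p = 0.0194) and Lilr4b -2.91 ± 0.18 (adjusted p = 0.0133), again in a family of near-identical genes.

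Of 22 myeloid transcription factors 2 fell, Tfec and its relative Mitf (-1.50 ± 0.19, adjusted p = 0.0491, and 0.192 without the pairing). The lineage factors Spi1 (PU.1), Cebpa, Cebpb and Irf8 read -0.20, -1.08, -0.94 and 0.39, and none passed. Spi1 lay at 0.21, -2.08 and -1.89 with the Bach2 vector and at 1.02, -2.05 and -2.12 with the control vector, which overlap. Cebpa did so as well.

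Of 15 chemokine ligands 5 fell and 1 rose, with a median of -1.24. Ccl24, an eosinophil attractant made by macrophages, stood at -2.08, -2.57 and -1.98 with the Bach2 vector and at 1.91, 1.48 and 2.05 with the control vector (-4.02 ± 0.17, adjusted p = 0.0122). The arrays of each group lay close together. Cxcl3 (-5.15 ± 0.39), Ccl9 (-2.46 ± 0.26), Pf4, the platelet factor (-2.42 ± 0.18), and Ccl3 (-2.18 ± 0.18) fell too, Cxcl3 not without the pairing (adjusted p = 0.0907). Ccl9 was named after its values were seen. Ppbp, another platelet chemokine, counted in the megakaryocyte list, was above background on 0 of 3 Bach2-vector arrays and at least 16.5-fold lower (adjusted p = 0.0130). The chemokine that rose, Xcl1, is described with the rises.

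Of 17 genes of proteolysis and matrix 4 fell and 1 rose, with a median of -0.64. Plaur stood at 0.13, 0.26 and 0.44 with the Bach2 vector and at 3.33, 3.06 and 2.92 with the control vector (-2.82 ± 0.22, adjusted p = 0.0183). Adam8, a myeloid membrane protease, read -3.72 ± 0.25 (adjusted p = 0.0147), and Serpinb2, an inhibitor of urokinase, -4.56 ± 0.18 (adjusted p = 0.0122, and 0.0772 without the pairing; above background on 1 of 3 Bach2-vector arrays). Of the coagulation factors, looked at after their values were seen, F7 fell by both of its probes, -3.11 ± 0.17 and -3.40 ± 0.18 (adjusted p = 0.0130 each). Probes of F10 disagreed: its brightest read 0.19 ± 0.22 and did not pass (adjusted p = 0.880), while a dimmer one passed at -2.82 ± 0.22 (adjusted p = 0.0186). F3, tissue factor, read -2.31 ± 0.30 by its brightest probe and just missed the threshold (adjusted p = 0.0516), while a dimmer probe, above background on 0 of 3 Bach2-vector arrays, passed and was at least 4-fold lower (adjusted p = 0.0204, and 0.0979 without the pairing).

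The largest named rises included surface and secreted proteins of lymphoid and dendritic cells. Cd83, a surface protein of mature dendritic cells and activated B cells, stood at 1.68, -1.16 and -0.45 with the Bach2 vector and at -4.24, -8.13 and -7.87 with the control vector. It had the largest named rise, 109-fold (6.77 ± 0.33, adjusted p = 0.0122), with 1 of 3 control-vector arrays above background, and it did not pass without the pairing (adjusted p = 0.0753). Xcl1, lymphotactin, a chemokine of NK and T cells, stood at -1.35, -0.20 and 0.28 with the Bach2 vector and at -6.38, -8.20 and -4.98 with the control vector (6.09 ± 0.63, adjusted p = 0.0305). Bmp2, a bone morphogenetic protein, stood at -0.82, -1.60 and -2.20 with the Bach2 vector and at -7.18, -6.98 and -6.29 with the control vector (5.27 ± 0.45, adjusted p = 0.0215), above background on 1 of 3 control-vector arrays. In all of these the groups did not overlap.

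Upb1, an enzyme of pyrimidine breakdown, stood at 1.16, 0.97 and 0.59 with the Bach2 vector and at -5.26, -5.32 and -3.67 with the control vector, and rose 50.5-fold (5.66 ± 0.48, adjusted p = 0.0206). Wnt9a, a secreted Wnt ligand, was above background on 0 of 3 control-vector arrays and at least 16.9-fold higher (adjusted p = 0.0122). Rflna was likewise above background on 0 of 3 and at least 7.57-fold higher (adjusted p = 0.0130). Igsf5, an immunoglobulin superfamily gene, read 5.07 ± 0.29 (adjusted p = 0.0130), Art2b, an ADP-ribosyltransferase of T cells, 4.19 ± 0.40 (adjusted p = 0.0270), and Pla1a, a phospholipase, 4.14 ± 0.45 (adjusted p = 0.0343). Clca1, Hepacam2, Hes1 and Zcchc18 rose by 4.66, 4.44, 4.24 and 4.03 on the log2 scale, and none of these 4 passed without the pairing (adjusted p = 0.0536, 0.0511, 0.215 and 0.0547). Among 23 Wnt and BMP genes 2 rose and 1 fell, with a median of -0.05, so Wnt9a and Bmp2 stood alone there with Rspo1, a Wnt enhancer that fell (-2.29 ± 0.18, adjusted p = 0.0186, and 0.330 without the pairing).

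Interferon-type genes were mostly higher with the Bach2 vector, and some of them passed. Of 16 guanylate-binding proteins and related GTPases, which act against pathogens inside cells, 5 rose and 0 fell, 15 had a positive difference and the median was 1.23. Gbp2 stood at 3.59, 2.71 and 2.86 with the Bach2 vector and at -0.78, -1.28 and -0.78 with the control vector (4.00 ± 0.22, adjusted p = 0.0130). Gbp4 stood at 1.57, 0.87 and 1.36 with the Bach2 vector and at -3.47, -3.78 and -2.39 with the control vector (4.48 ± 0.30, adjusted p = 0.0147). Gbp8, Gbp5 and Gbp7 rose by 2.74, 2.18 and 1.84 on the log2 scale, and all 5 passed without the pairing too. The family is closely related, so the split between its members is uncertain.

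Of 22 interferon response genes 6 rose and 0 fell, 21 had a positive difference and the median was 1.16. Ifit3 stood at -0.46, -1.45 and 0.23 with the Bach2 vector and at -4.09, -4.50 and -3.23 with the control vector (3.38 ± 0.20, adjusted p = 0.0130). Cmpk2, Isg15, Usp18, Ifit1 and Ifih1 rose by 2.53, 2.00, 1.93, 1.93 and 1.79 on the log2 scale; Ifit1 was named after its values were seen. Without the pairing only Cmpk2 passed (adjusted p = 0.0221), and the other 5 had adjusted p of 0.0511 to 0.707. Irf1, a transcription factor induced by interferon, read 0.62 and did not pass.

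MHC class II genes, which present antigen, had a median of 1.19, with 11 of 12 positive, but 1 passed. Cd74, the invariant chain, stood at 5.23, 2.13 and 3.01 with the Bach2 vector and at 3.33, 0.36 and 1.11 with the control vector. Its groups overlapped, while its pair differences were 1.90, 1.77 and 1.90, so it rose in the paired fit (1.86 ± 0.17, adjusted p = 0.0258) and did not pass without the pairing (adjusted p = 1). H2-Aa and Ciita, the class II activator, read 1.45 ± 0.22 (adjusted p = 0.0707) and 1.33 ± 0.29 (adjusted p = 0.156). Of 20 dendritic cell genes 3 rose and 0 fell, with a median of 0.65: Cd83, Ccr7 and Irf4. Ccr7, the receptor that guides cells to lymph nodes, stood at 3.81, 2.83 and 2.99 with the Bach2 vector and at -0.79, -0.72 and 0.40 with the control vector (3.59 ± 0.41, adjusted p = 0.0371). Irf4, a factor of dendritic and B cells, stood at 1.78, 1.23 and 1.95 with the Bach2 vector and at -1.28, -1.96 and -0.50 with the control vector (2.90 ± 0.23, adjusted p = 0.0185).

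Of 28 early B-lineage genes 4 rose and 0 fell, with a median of 0.32. The 4 were Irf4, Cd72, a B-cell coreceptor (2.40 ± 0.31, adjusted p = 0.0488), and the surrogate light chain genes Vpreb2 (1.88 ± 0.18, adjusted p = 0.0267) and Vpreb1 (1.61 ± 0.18, adjusted p = 0.0376), which are near-identical. Irf4 alone passed without the pairing (adjusted p = 0.0462), the other 3 having adjusted p of 0.107 to 0.315. Vpreb1 stood at 0.44, 1.00 and 1.78 with the Bach2 vector and at -1.10, -0.47 and -0.03 with the control vector. The defining B-cell genes Pax5 and Cd79a were dim, at -5.74 to -3.87 with the Bach2 vector and -5.50 to -3.71 with the control vector, and read -0.34 and -0.05. Il7r, the IL-7 receptor of lymphoid progenitors, stood at -2.25, -2.85 and -2.72 with the Bach2 vector and at -5.62, -5.63 and -3.50 with the control vector; the groups did not overlap, but the difference did not pass (2.31 ± 0.53, adjusted p = 0.173). Foxo1, a factor that acts early in B-cell development, read 1.26 ± 0.22 by its brightest probe (adjusted p = 0.0896) and passed by a dimmer one at 1.52 ± 0.20 (adjusted p = 0.0491, and 0.134 without the pairing).

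Single members moved in the other lymphoid lists. Of 19 mature B and plasma cell genes Cd40 and Bcl6 rose (2.80 ± 0.25 and 2.59 ± 0.29) and Fkbp11 fell (-1.58 ± 0.19), with a median of -0.05. Of 19 T-lineage genes Il2ra rose (2.63 ± 0.26) and Cd28 fell (-2.59 ± 0.23), with a median of 0.15. None of these 5 passed without the pairing, Cd28 only just missing (adjusted p = 0.0504). Zap70, of the T-lineage list, read 1.40 ± 0.25 by its brightest probe and did not pass (adjusted p = 0.102). A dimmer Zap70 probe passed at 2.47 ± 0.26 (adjusted p = 0.0322, and 0.0346 without the pairing). Of 20 NK and innate lymphoid genes Xcl1 and Tbx21, the factor T-bet, rose (Tbx21 2.77 ± 0.36, adjusted p = 0.0490, and 0.0536 without the pairing), and the median was 0.35, or 0.60 without replicate 2. Of 22 NF-kB and activation genes Cd83 and Cd40 rose, with a median of 0.14. Of 15 genes of lymphocyte homing 2 rose, Ccr6 and Ccr7, and 1 fell. Ccr6, a chemokine receptor of B and dendritic cells, stood at 1.84, 1.36 and 1.68 with the Bach2 vector and at -3.22, -2.18 and -1.41 with the control vector (3.90 ± 0.42, adjusted p = 0.0322).

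Progenitor genes did not pass in either direction, 0 of 25 in limma, with a median of 0.18. Kit, the SCF receptor used in the sort, stood at 3.34, 3.98 and 3.52 with the Bach2 vector and at 3.54, 3.81 and 3.77 with the control vector (-0.09 ± 0.19, adjusted p = 0.945). Flt3 stood at 3.98, 4.27 and 4.76 with the Bach2 vector and at 1.57, 2.76 and 3.20 with the control vector; the groups did not overlap, and the difference just missed the threshold (1.83 ± 0.25, adjusted p = 0.0569). Ly6a (Sca-1) and Cd34 were well above background on all 6 arrays and read -1.01 and 0.63. RNA of Kit, Flt3 and Ly6a, which were markers of the sort, was thus read in both groups. Whether the cells kept the sorted surface phenotype after the culture was not measured here.

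Of 27 cell cycle genes 1 passed, Ccnd1, cyclin D1 (1.98 ± 0.20, adjusted p = 0.0284, and 0.201 without the pairing), with a median of 0.06; Mki67 and Top2a read 0.21 and 0.40. Among 19 inhibitors of cyclin-dependent kinases and p53 targets 0 passed, with a median of 0.25. Of 27 glycolysis and hypoxia genes 1 passed, Hk3, a hexokinase of myeloid cells, which stood at 1.18, 1.43 and 1.17 with the Bach2 vector and at 4.47, 5.26 and 5.31 with the control vector (-3.75 ± 0.23, adjusted p = 0.0135); 24 of the 27 had a negative difference, with a median of -0.23. Of 20 mast cell, basophil and eosinophil genes 2 rose and 1 fell, with a median of 0.07. Hdc, the enzyme that makes histamine, rose (2.40 ± 0.18, adjusted p = 0.0182), as did Siglecf, an eosinophil lectin (2.54 ± 0.31, adjusted p = 0.0437), while Ear1 fell (-2.60 ± 0.34, adjusted p = 0.0495, and 0.496 without the pairing). Of 19 erythroid and megakaryocyte genes 2 fell, the platelet chemokines Pf4 and Ppbp, with a median of 0.12. Genes of stress and RNA quality passed in 0 of 19 cases, with a median of 0.03 and a list mean level of 5.01 to 5.54 with the Bach2 vector and 4.90 to 5.55 with the control vector.

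**Figure D3:**
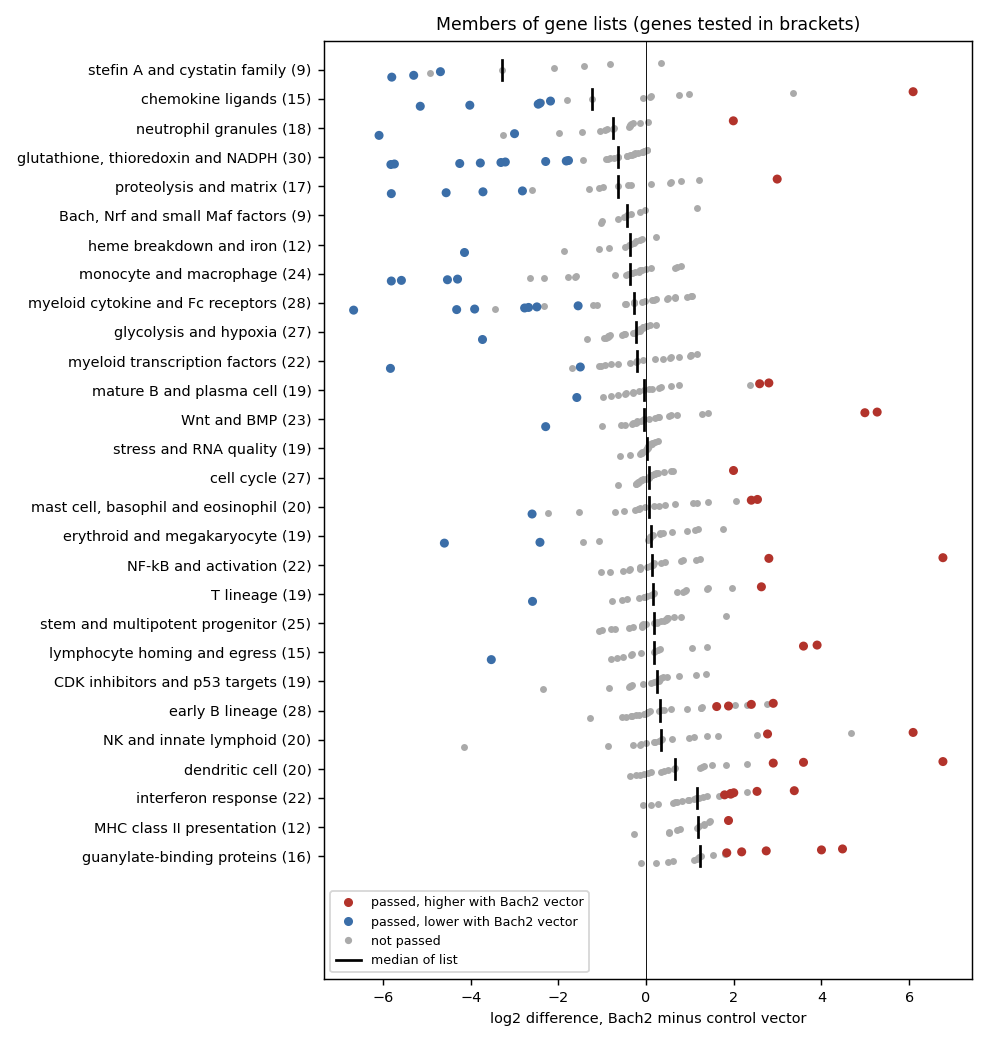
Log2 difference (Bach2 minus control vector) of each tested member of 28 gene lists, with the number tested in brackets and the list median as a black bar. Red and blue members passed and were higher or lower with the Bach2 vector; the stefin list has the lowest median (-3.29) and the guanylate-binding proteins the highest (1.23).

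The genes that fell with the Bach2 vector were also read in follicular B cells of Bach2-knockout (Bach2KO) and WT mice kept with an antibody against IgM, which shares no array with the vector comparison. The follicular B-cell arrays were dimmer than the MPP arrays. Their 75th percentile of signal was 97.3 to 358, and 50.9% to 58.8% of spots were well above background, both lowest in Bach2KO replicate 2. Of 71 such genes tested there, 44 were well above background on all 6 arrays. A gene silent in WT cells could enter the test only through the Bach2KO arrays, so counts are given for the genes above background on all 6. That restriction was chosen after the values were seen, and it leaves out genes that are off on either side. Of these 44 genes, 19 were called higher in Bach2KO cells and 4 lower, with a median difference of 0.60, while of 11467 genes under the same restriction 536 were called higher (4.67%) and 464 lower (4.05%), with a median of -0.18. Over all 30769 probes tested there the shares were 4.8% higher and 3.38% lower. Srxn1 was 4.49 ± 0.36 higher in Bach2KO cells (adjusted p = 2.9e-04), Nqo1 3.12 ± 0.20 higher (adjusted p = 1.01e-04), Ccl3 3.09 ± 0.39 higher (adjusted p = 0.00269) and Gclm 0.94 ± 0.20 higher (adjusted p = 0.0289) on the log2 scale. Mgst1 went the other way and was lower in Bach2KO cells (-1.78 ± 0.40, adjusted p = 0.0340), well above background on 2 of 3 Bach2KO arrays and 3 of 3 WT arrays. Of 99 genes that rose with the Bach2 vector and met the same restriction, 17 were called higher in Bach2KO cells and 17 lower, with a median of 0. Ccr7 and Ccr6 were lower there (-1.64 ± 0.20 and -1.20 ± 0.21, adjusted p = 0.00258 and 0.0138), while Gbp2 and Isg15, which rose with the Bach2 vector, were higher in Bach2KO cells as well (2.13 ± 0.27 and 2.36 ± 0.19, adjusted p = 0.00299 and 3.12e-04). In lymphoid progenitors that lack both Bach1 and Bach2, against WT ones, 0 of 41816 probes passed in limma, and over genes above background on all 6 arrays the median was 0.35 for those that fell with the Bach2 vector, -0.05 for those that rose and 0.06 for all.

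**Figure D4:**
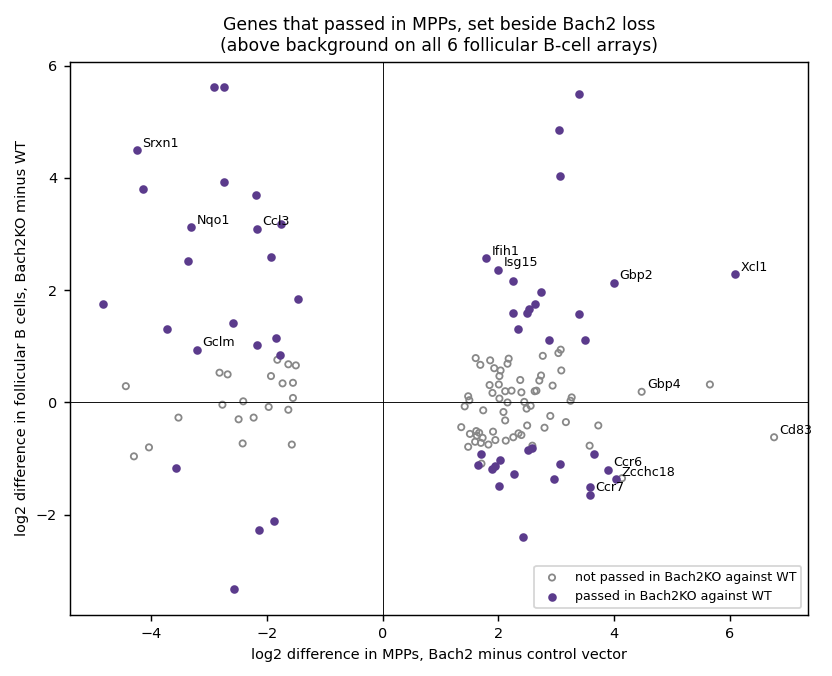
Each of 143 genes that passed between vectors and was well above background on all 6 follicular B-cell arrays, with its log2 difference in MPPs (Bach2 minus control vector) on the x axis and in follicular B cells (Bach2KO minus WT) on the y axis. Filled points (57) passed in follicular B cells; on the left 30 of 44 points lie above 0 and on the right 49 of 99, and genes silent in either group of B cells are not drawn.

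In B220+ cells grown for 6 days under B-lineage conditions after 24 h in the multilineage culture, which also carried the Bach2 vector, levels are given without a test, since they differ in culture and sort and lie on 1 slide. Srxn1 stayed low there, at -2.22, -2.99 and -2.85, and Ccr7 high, at 3.87, 3.82 and 4.34. Thbs1, by contrast, stood at 3.26, 3.31 and 3.07, at the upper end of its control-vector MPP values. Some genes that rose did not keep their level in B220+ cells either. Bmp2 averaged -6.63 there, above background on 1 of 3 arrays, against a control-vector MPP mean of -6.82. Clca1 averaged -7.71, above background on 0 of 3 arrays, which lay below its control-vector MPP mean of -2.84. Gbp4 (0.11) and Wnt9a (-1.18) stayed above their control-vector means of -3.21 and -8.09. All of these are examples, and genes that kept or lost their level were not counted.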

How the data were processed

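Single-colour arrays were scanned and processed by the authors with Agilent Feature Extraction, version 10.7.3.1 per the file headers and 9.1 per the submitters' processing notes. The deposited intensity values are background-corrected processed signals, linear and not scaled between arrays. From them log2 values were taken here, less the 75th percentile of all non-control spots on the array; spots marked as outliers were dropped and spots of a probe averaged. Of 55681 probes 26413 were named, with 20018 symbols, through unversioned RefSeq accessions and an annotation on GRCm38.p6. Probes well above background on at least 3 of 6 arrays, with at least 2 complete pairs, were tested by the moderated linear models of limma (3.58.1, run under R 4.3.3), with the replicate number as a block and Benjamini-Hochberg adjustment over all of them; a gene is read by its brightest probe. Cd72, Gstm1, Ifih1, Igsf5 and Mitf passed by it while a second probe of the same sign did not (adjusted p = 0.0506 to 0.163). The 2 loss comparisons were fitted the same way. The RefSeq windows were searched and figures drawn with pandas 2.3.3, matplotlib 3.10.9 and numpy 2.4.6 under Python 3.11.15.

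Genes were named by a rule: Bach1 and Bach2, the 15 largest rises and 15 largest falls that passed with 1 sign in the pairs, and from each list at most 5 members, those of smallest unadjusted p. List members and markers named beyond that were picked after their values were seen. Probes known by accession, RIKEN or Gm names only were counted, not named, and some genes are not reported here; the largest fall of all, 206-fold, is such a probe. Members and lists were chosen with earlier results of these data known. Arrays were paired by their number. Deviations from the group means of same-numbered arrays correlated at 0.61, 0.37 and 0.20 in pairs 1 to 3. Unlike-numbered arrays of replicates 2 and 3, which share a slide, correlated at 0.34 and 0.24. Pair 3 lay below both of these and pair 2 little above, so these correlations set only number 1 apart. That number 1 is also 1 slide cannot be told apart from the pairing there. The sex-linked Ddx3y, Eif2s3y and Xist, by contrast, set number 3 apart in both groups. Beyond the pooling of 4 mice per experiment, the labels do not say how the 3 replicates of a group were kept apart. Alternatives were other blocks, filters, scalings, background corrections and a variance trend, and leaving out each pair.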

Additional observations from a re-analysis of the deposited data

How the results depend on the processing

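The count of passing probes depended on the fit. The direction of the 534 probes did not change in any alternative that measured them, but most alternatives could hardly change it. All 534 had one sign in the 3 pairs, so leaving out a pair could not turn it. Other blocks, filters and a variance trend used the same array values. Against 301 higher and 233 lower, the counts were 136 and 126 with no replicate block on 6 arrays, 146 and 134 with no replicate block on all 9 MPP arrays, and 143 and 121 with the replicate block on 9 arrays. They were 84 and 90 with no filter on dim probes, 538 and 402 with a variance trend and 489 and 389 with 1 probe per named gene. With normexp background correction on the median signal, chosen after seeing the data because the files hold no mean signal, they were 688 and 500. The slide as block gave 741 calls in all, probes above background on all 6 arrays 777, quantile normalization 443, the percentile over detected probes 528 and outlier spots kept 507, and the deposited value table gave the same 534. Leaving out 1 pair gave 0 to 26 higher and 0 to 42 lower. Of 81 named genes that passed, 52 passed without the replicate block and 29 did not.

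List medians moved by more than the spread of the pairs in the cases given first. With probes above background on all 6 arrays the median was -0.99 for proteolysis and matrix, 0.43 for mast cell, basophil and eosinophil genes and -0.11 for sex-linked genes. Leaving out 1 pair gave -0.91 to -0.41 for proteolysis and matrix, -0.21 to -0.01 for myeloid transcription factors, 0.91 to 1.36 for MHC class II, -0.02 to 0.15 for lymphocyte homing, 1.23 to 1.36 for guanylate-binding proteins and -0.13 to 0.44 for sex-linked genes. Within that spread, but by over 1.5 times, leaving out 1 pair moved the median of neutrophil granules (-1.1 to -0.41), of glutathione, thioredoxin and NADPH genes (-0.77 to -0.41), of NK and innate lymphoid genes (0.35 to 0.60) and of glycolysis and hypoxia genes (-0.36 to -0.16), besides lists with medians near 0. Signs turned only in genes that had not passed: Eif2s3y was -0.04 and Xist 0.05 with normexp, and over the fits without 1 pair Xist ran from -0.53 to 0.29, Chac1 from -0.6 to 0.08, Uty from -0.08 to 0.74 and Eif2s3y from -0.11 to 0.71. Signal near background limits the folds of genes above background on 1 or 2 arrays of a group.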
